A study of Homo sapiens with 18 samples.

Results

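MV4-11 cells were compared between 24 h and 8 h of 50 nM IACS-010759 (IACS), a small molecule that inhibits complex I, the entry point of electrons into the mitochondrial respiratory chain. MV4-11 is an acute myeloid leukemia (AML) cell line with a *KMT2A-AFF1* fusion and an internal tandem duplication in *FLT3*. The comparison used 6 of the 18 RNA sequencing libraries of the series, 3 labelled as 8 h and 3 labelled as 24 h, and no vehicle library entered the test. Both groups carry the drug at the same dose, so the comparison separates an early from a late response and does not measure the response to the drug itself. Of the 45372 gene symbols in the deposited table, 13644 reached a mean of 1 TPM over the 6 libraries and were tested. TPM is an abundance corrected for gene length, with the same total in every library. MV4-11 libraries with DMSO, the vehicle, are given beside some genes as a description, because the sources used here do not say at which time those 3 cultures were harvested. The same contrast in THP1, another AML cell line with a *KMT2A* rearrangement, is given where MV4-11 is compared with it. Each group holds 3 independent replicates, by the methods. Libraries of one replicate number at 8 h and 24 h are called a pair here, which names the block in the fit. Neither the labels nor the methods say what a number stands for, so pair values are a description.

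The values are TPM after scaling of each library by its median ratio to the other libraries, called scaled TPM here. The differences are log2 differences of scaled TPM + 1, 24 h minus 8 h, fitted in limma with the replicate number as a block and given with their standard errors (SE). The added 1 understates the change of genes at a few TPM. A gene was called when its Benjamini-Hochberg adjusted p over all genes tested was below 0.05 and its change exceeded 1.5-fold.

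When complex I is inhibited, NADH is no longer oxidised at its normal rate, less ATP comes from respiration, and cells that make aspartate through the respiratory chain lose part of that supply. Stress in mitochondria can reach the cytosol through DELE1, which activates the kinase HRI (*EIF2AK1*), and HRI phosphorylates eIF2α. General translation then slows while *ATF4* is translated, and ATF4 switches on genes for amino acid synthesis, amino acid transport and tRNA charging together with feedback genes. This integrated stress response (ISR) usually starts within hours, and its feedback genes can dampen it later. Cholesterol synthesis is governed separately by SREBP2, which is released when sterols in the endoplasmic reticulum fall, and its late steps consume oxygen and NADPH.

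The 6 libraries carried the genes of their labelled cell type. All 12 markers fixed for MV4-11 were above the filter, with a summed level of 4960 to 6620 scaled TPM at 8 h and 4320 to 7550 at 24 h. Most of that sum came from *LYZ*, with 4407 to 6095 at 8 h and 3742 to 6998 at 24 h. Of the 12 markers, 11 were also above the filter in THP1, so their presence does not tell the lines apart. Of 9 markers of T and NK cells, 2 were above the filter and 4 were at 0 in all 6 libraries, and their sum of 63.7 to 70.2 at 8 h and 71.3 to 77.9 at 24 h came almost wholly from *NKG7*. Of 7 B cell markers, 1 was above the filter and 1 was at 0 in all 6 libraries, with sums of 3.01 to 3.54 at 8 h and 2.22 to 3.12 at 24 h. Of 11 erythroid and megakaryocyte markers, 2 were above the filter and 6 were at 0 throughout, with sums of 7.84 to 9.81 at 8 h and 10.7 to 11.6 at 24 h. Of 11 markers of epithelium and stroma, 3 were above the filter and 5 were at 0 throughout, with sums of 19.2 to 24.1 at 8 h and 21.7 to 24.6 at 24 h.

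One pair of libraries stood apart. The 6 most abundant noncoding RNA symbols, such as 7SL and 7SK, took 51.9% and 50.9% of the TPM in replicates 1 and 2 at 8 h and 39.6% in replicate 3, against 47.8%, 47.9% and 42.9% at 24 h. The scaling factors of the 8 h libraries followed, with 0.89, 0.95 and 1.16, while those at 24 h were 1.02, 1.01 and 1.00. Within a group the correlation of log2 values between replicates was 0.972 to 0.992. Several values below are therefore also given without the third pair. That choice was made after the data were seen, and list values without the first or the second pair are not given here. Where pairs 1 and 2 have the same sign, leaving out the third pair favours that sign.

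No gene was called between 24 h and 8 h of IACS (0 of 13644 genes, 0%), and none passed the adjusted threshold at any fold. The lowest adjusted p in limma was 0.64, and the fit without the block also called 0 genes, with a lowest adjusted p of 0.998. At an unadjusted p below 0.05 there were 623 genes higher at 24 h (4.57%) and 415 lower (3.04%), together 1038 (7.61%), of which 35 (0.257%) and 38 (0.279%) also exceeded the fold threshold. The 3 libraries at 24 h lay wholly above the 3 at 8 h for 795 genes (5.83%) and wholly below them for 647 genes (4.74%). Over all genes tested 48.9% had a log2 difference above 0 and 51.1% below 0, with a median of -0.00. These percentages are the background for each gene group below, and since no gene was called, the genes below are described by their values and not as changed.

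The third pair decided that count. Without it, 53 genes were called, 28 higher at 24 h (0.206% of 13618 genes) and 25 lower (0.184%), from 2 pairs and 1 residual degree of freedom per gene. In that fit 1730 genes were higher (12.7%) and 1976 lower (14.5%) at an unadjusted p below 0.05, and these shares are the background for the counts without the third pair below. Without the second pair 5 genes were called and without the first 0. The genes called without the third pair included *CYBB*, *STARD4*, *MT-ND3* and *RPS16* among the higher ones and *TRIB3*, *PSAT1* and *NQO1* among the lower ones. The higher ones also included both mitochondrial ribosomal RNAs and several 5.8S ribosomal RNA copies, whose levels differed several-fold between replicates of one time. The lower ones also included many small noncoding RNAs, such as *SNORA5A* and *SCARNA16*, and the metallothionein genes *MT1G*, *MT1E* and *MT1X*. Whether the low share of noncoding RNA in the third pair has a part in the change of the count was not tested.

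**Figure D1:**
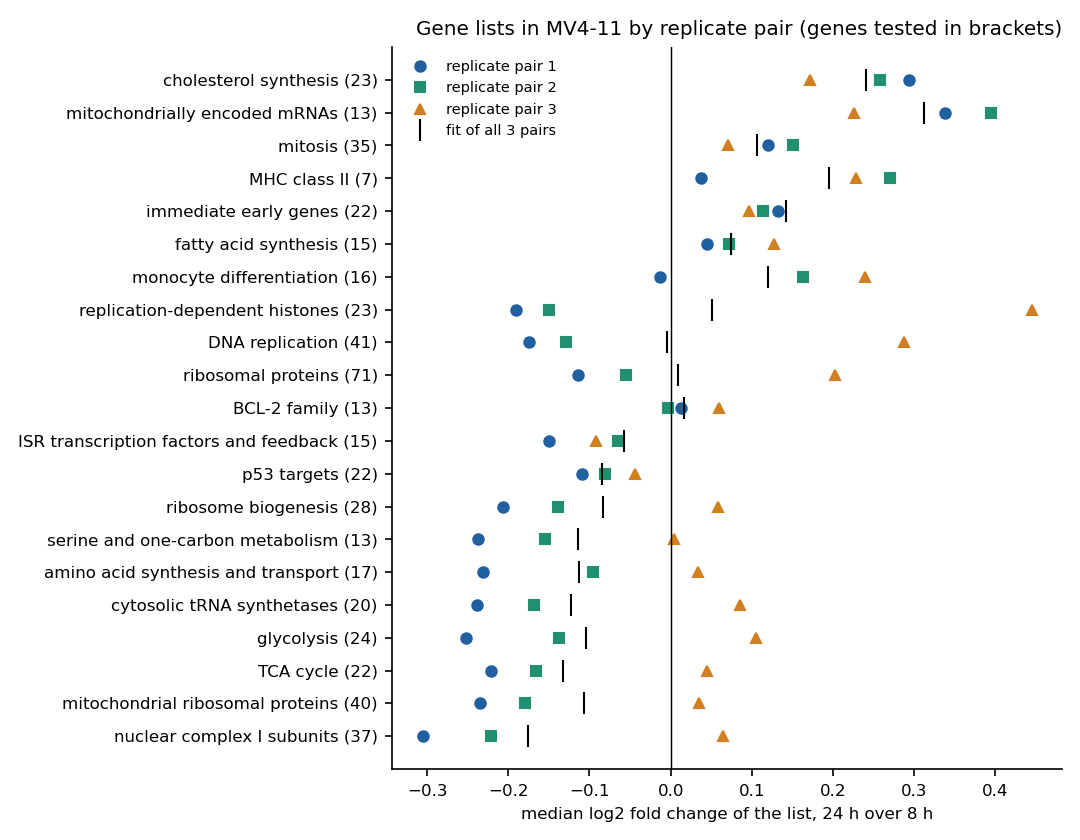
Median log2 difference, 24 h minus 8 h, of 21 gene lists (rows) in each of the 3 replicate pairs of MV4-11 (1 shape per pair), with a black bar for the median in the fit of all 3 pairs. Cholesterol synthesis, mitosis and the mitochondrially encoded mRNAs lie above 0 in all 3 pairs after scaling. Their medians in the third pair are 0.17, 0.07 and 0.23, and the scaling raises the differences of that pair. Lists such as nuclear complex I subunits (-0.31, -0.22 and 0.06) and DNA replication (-0.17, -0.13 and 0.29) cross 0 in the third pair.

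The plot of list medians by pair shows how far the third pair departed after scaling. Of 38 gene lists with at least 5 genes tested, 32 had medians of one sign in pairs 1 and 2, and 17 of these had the opposite sign in pair 3. In 16 of the 17, pairs 1 and 2 lay below 0 and pair 3 above 0. The scaling factors themselves lower the differences of pairs 1 and 2 and raise those of pair 3. Pair medians on unscaled TPM are not given here, so the part of the scaling in the sign of a pair was not tested. In THP1 the same contrast called 76 genes higher (0.549% of 13853) and 53 lower (0.383%), with 1099 past the adjusted threshold at any fold (7.93%) and 51.5% of genes above 0. The count was 0 without the block and 27 to 233 with 1 pair left out, lowest without the first pair and highest without the third. In the test of the difference between the cell lines 1968 of 12547 genes (15.7%) had an unadjusted p below 0.05.

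The ISR list had 15 genes tested, of which 10 lay below 0 and 5 above. Of these, 5 were lower at an unadjusted p below 0.05 and 0 were higher. The median log2 difference was -0.06, and the 3 pairs gave -0.15, -0.06 and -0.09. Without the third pair 12 lay below 0, the median was -0.09 and 1 gene, *TRIB3*, was called. *TRIB3* (chr20:362835-397559, GRCh38), a pseudokinase that ATF4 induces and that feeds back on it, had 14.8, 10.8 and 8.35 scaled TPM at 8 h and 7.90, 6.72 and 6.96 at 24 h. All 3 libraries at 24 h lay below all 3 at 8 h and next to the DMSO mean of 6.42 ± 0.89 (SD, n = 3). The log2 difference was -0.56 ± 0.13 (SE), the lowest of the list.

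*CHAC1* (chr15:40952962-40956512), an ATF4 target that degrades glutathione, had 5.46, 4.03 and 4.10 scaled TPM at 8 h and 2.77, 3.21 and 3.39 at 24 h. The times did not overlap, and the 24 h libraries still lay above the 3 DMSO libraries, whose mean was 1.03 ± 0.10 (SD, n = 3). *DDIT4*, which restrains mTORC1, had 11.3, 10.7 and 11.5 at 8 h and 7.88, 9.02 and 9.25 at 24 h, again without overlap and with DMSO at 6.37 ± 0.97 (SD, n = 3). *SESN2*, a leucine sensor upstream of mTORC1, had 9.04, 7.48 and 7.42 at 8 h and 6.004, 7.11 and 5.68 at 24 h. The log2 differences of these genes were -0.42 ± 0.14, -0.33 ± 0.08 and -0.31 ± 0.11 (SE).

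*ATF4* itself was not among the lower genes. It had 239.3, 233.4 and 220.4 scaled TPM at 8 h and 252.1, 235.3 and 261.5 at 24 h, with DMSO at 188.1 ± 7.61 (SD, n = 3). The groups overlapped and the log2 difference was 0.11 ± 0.08 (SE), the highest of the list. *DDIT3*, which encodes the transcription factor CHOP, was at 20.3, 19.9 and 26.6 at 8 h and 17.5, 20.4 and 25.6 at 24 h, where the spread between libraries exceeded the difference of -0.07 ± 0.07. The relay genes *DELE1* and *EIF2AK1* had differences of 0.12 ± 0.06 and 0.11 ± 0.05 (SE), with no overlap between the times in either. Of the 14 genes in the list of eIF2α kinases and the mitochondrial relay, 7 lay above 0 and 7 below, and 0 had an unadjusted p below 0.05.

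**Figure D2:**
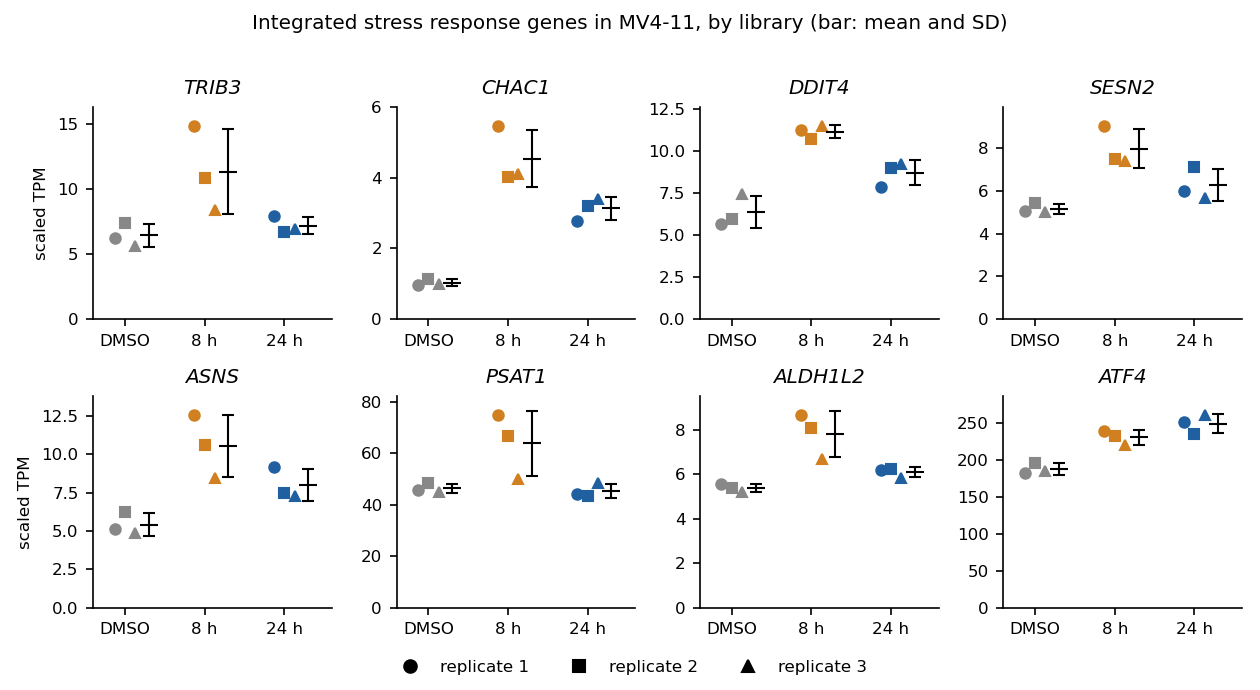
Scaled TPM (y axis, linear) of 8 ISR and serine pathway genes in the 9 MV4-11 libraries, with points for replicates in DMSO, 8 h and 24 h of IACS and bars for the mean ± SD (n = 3). *TRIB3*, *CHAC1*, *DDIT4*, *SESN2*, *PSAT1* and *ALDH1L2* at 24 h lie below 8 h without overlap, *ASNS* overlaps (7.30 to 9.17 at 24 h, 8.47 to 12.6 at 8 h), and *ATF4* reaches 261.5 at 24 h.

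The enzymes that ATF4 serves showed the same order in several members. In serine and one-carbon metabolism 9 of 13 genes lay below 0 and 4 were lower at an unadjusted p below 0.05, with a median of -0.11. *PSAT1*, the aminotransferase of serine synthesis, had 74.9, 66.8 and 50.1 scaled TPM at 8 h and 44.2, 43.3 and 48.6 at 24 h, and DMSO lay at 46.5 ± 1.78 (SD, n = 3). Its log2 difference was -0.47 ± 0.15 (SE), with 2 high libraries at 8 h and the third close to the 24 h values. *ALDH1L2*, a mitochondrial folate enzyme that yields NADPH, had 8.66, 8.06 and 6.66 at 8 h and 6.21, 6.25 and 5.83 at 24 h, with DMSO at 5.39 ± 0.18. *PHGDH*, the first enzyme of the serine pathway, was at 5.90, 5.55 and 3.25 at 8 h and 4.86, 5.09 and 4.42 at 24 h, and its difference was 0.00 ± 0.14 (SE).

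Among genes of amino acid synthesis and transport 13 of 17 lay below 0 and 4 were lower at an unadjusted p below 0.05, with a median of -0.11. *ASNS*, asparagine synthetase, had 12.6, 10.6 and 8.47 scaled TPM at 8 h and 9.17, 7.47 and 7.30 at 24 h, and it was lower in each of the 3 pairs although the groups overlapped. *GPT2*, a mitochondrial alanine aminotransferase, and *SLC7A5*, a transporter of large neutral amino acids, had differences of -0.32 ± 0.09 and -0.29 ± 0.08 (SE) without overlap. *CTH*, which makes cysteine, had the lowest difference of the list at -0.42 ± 0.20, and with 0.97, 2.22 and 1.05 at 24 h one library stayed at the 8 h level. Of 20 cytosolic tRNA synthetases, 18 lay below 0 and 3 were lower at an unadjusted p below 0.05, with a median of -0.12 and *GARS* lowest at -0.28 ± 0.11. In the lists of serine, amino acid and tRNA genes the first 2 pairs lay below 0 and the third at 0.00, 0.03 and 0.09. With the third pair left out, their medians were -0.17, -0.16 and -0.21, with 8, 9 and 17 genes lower at an unadjusted p below 0.05.

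The promoters of some of these genes carry the letters of the C/EBP-ATF response element (CARE), the sequence through which ATF4 acts. The letters TGATGNAA were searched on both strands in the 250 bases before each start in the RefSeq promoter table (GRCh38.p14). They were found in 5 of 15 ISR genes (33.3%), 3 of 13 genes of amino acid synthesis and transport (23.1%), 3 of 16 tRNA synthetases (18.8%) and 1 of 8 genes of serine and one-carbon metabolism (12.5%). Of 9199 tested genes with a RefSeq promoter, 184 held them (2.0%), and among the 18 cholesterol and 14 fatty acid genes 0 did. The lists were written with ATF4 targets in mind, so these shares describe the lists. The 6 windows of 30 bases below are shown because the genes share the element while their levels at 24 h lay below 8 h in some and not in others, with the element in capitals and the strand of the gene shown.
CHAC1 (chr15:40953251-40953280, plus strand): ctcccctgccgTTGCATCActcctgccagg
ASNS (chr7:97872458-97872487, minus strand): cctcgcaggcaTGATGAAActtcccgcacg
GARS1 (chr7:30594834-30594863, plus strand): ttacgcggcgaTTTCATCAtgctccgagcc
MTHFD1L (chr6:150866346-150866375, plus strand): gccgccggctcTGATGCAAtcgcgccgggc
CEBPG (chr19:33374060-33374089, plus strand): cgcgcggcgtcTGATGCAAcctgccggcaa
ATF3 (chr1:212565205-212565234, plus strand): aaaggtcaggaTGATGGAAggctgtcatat
The element begins 209 bases before the start in *CHAC1*, 68 in *ASNS*, 33 in *GARS1* (listed as *GARS* in the table), 129 in *MTHFD1L*, 42 in *CEBPG* and 191 in *ATF3*, and in *CHAC1* and *GARS1* it lies on the reverse strand. *MTHFD1L*, a mitochondrial one-carbon enzyme, had 43.0, 42.8 and 43.8 scaled TPM at 8 h and 38.2, 38.1 and 39.3 at 24 h, below without overlap. *CEBPG*, a dimer partner of ATF4, was at 71.2, 71.2 and 72.6 at 8 h and 71.3, 67.7 and 76.9 at 24 h, and *ATF3*, a feedback factor, stayed near the filter at 1.22, 0.94 and 1.14 against 1.116, 1.30 and 0.68. A match of letters is a description and does not show that ATF4 binds there.

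THP1 lay on the other side of 0 for this group, a contrast of list medians that was not tested. In THP1 12 of 14 ISR genes lay above 0 with a median of 0.11, and the 3 pairs gave 0.14, 0.07 and 0.07. *ASNS* had 0.55 ± 0.12 (SE) in THP1 (adjusted p = 0.0494, limma), short of the fold threshold. *ALDH1L2* rose in THP1 by 0.62 ± 0.08 (adjusted p = 0.0235, limma). In the test of the difference between the cell lines, neither gene passed. The difference was -0.92 ± 0.12 for *ALDH1L2* (adjusted p = 0.0876, limma) and -0.90 ± 0.16 for *ASNS* (adjusted p = 0.107, limma).

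The genes of cholesterol synthesis lay higher at 24 h throughout. All 23 genes tested had log2 differences above 0, 15 at an unadjusted p below 0.05, and in 14 the times did not overlap. The median was 0.24, and the pairs gave 0.29, 0.26 and 0.17. The lowest was *FDPS* at 0.02 ± 0.08 (SE). Without the third pair 21 of 23 lay above 0, 16 at an unadjusted p below 0.05, and 2 were called.

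*DHCR7*, the last step of cholesterol synthesis, had 3.89, 3.78 and 2.82 scaled TPM at 8 h and 6.27, 5.598 and 5.45 at 24 h, against 5.72 ± 0.17 in DMSO. *STARD4*, a sterol carrier, had 4.08, 3.85 and 3.90 at 8 h and 7.37, 6.20 and 4.52 at 24 h. For both genes the times did not overlap, with differences of 0.60 ± 0.09 and 0.49 ± 0.13 (SE).

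Other genes of the pathway had smaller differences. *SQLE*, the first step that consumes oxygen, had 33.7, 30.8 and 29.8 scaled TPM at 8 h and 41.7, 39.8 and 36.4 at 24 h. *CYP51A1*, the sterol demethylase, had 22.9, 20.4 and 19.7 at 8 h and 29.1, 25.8 and 27.4 at 24 h. Neither gene overlapped between the times, and the DMSO means of 46.2 and 29.3 lay above every 8 h library. *INSIG1*, which holds SREBP2 in the endoplasmic reticulum when sterols are ample, had 41.7, 36.6 and 37.04 at 8 h and 55.7, 51.9 and 38.8 at 24 h, and *SREBF2*, the gene of SREBP2, had a difference of 0.24 ± 0.06 (SE). In both, the third 24 h library lay within the 8 h range, and both were higher in each of the 3 pairs.

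Of 18 cholesterol genes with a promoter in the table, 1 (5.56%), *SREBF2*, held the letters TCACNCCAC of a sterol response element in the 250 bases before its start. The same letters were in 1 of 14 fatty acid genes (7.14%) and 1 of 13 genes of amino acid synthesis and transport (7.69%), against 102 of 9199 tested genes (1.11%). In *SREBF2* the element begins 133 bases before the start. Its window is shown here, with the element in capitals, because *SREBF2* controls the group.
SREBF2 (chr22:41832962-41832991, plus strand): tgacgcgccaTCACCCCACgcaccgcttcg
No match in the other 17 windows says only that these letters are not in those 250 bases.

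**Figure D3:**
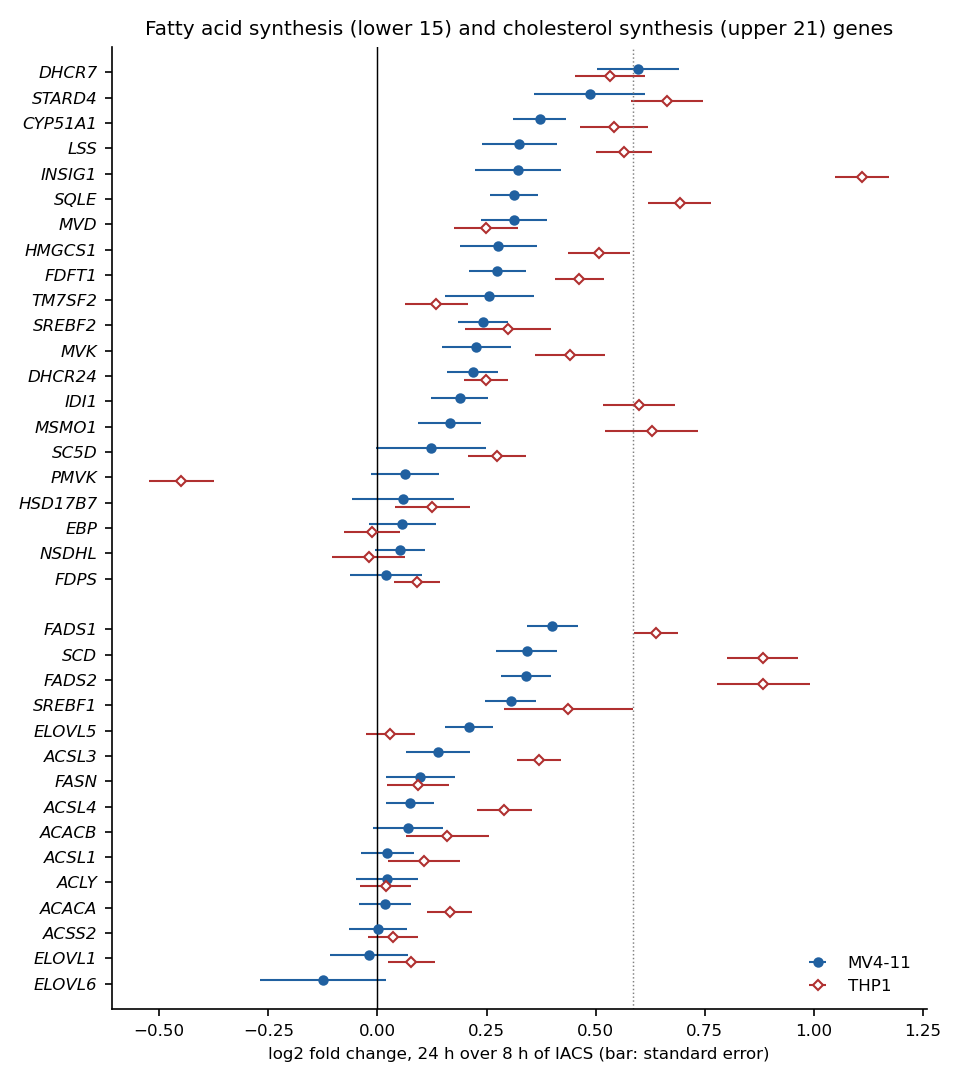
Log2 difference, 24 h minus 8 h of IACS (x axis, points with bars of 1 SE), of 21 of the cholesterol genes and 15 fatty acid genes (y axis) in MV4-11 and THP1, with a dotted line at the fold threshold of the call. In MV4-11 all 21 cholesterol genes plotted lie above 0, with *DHCR7* at 0.60, and in THP1 *INSIG1* reaches 1.11.

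In THP1 the same list had a median of 0.44, with 20 of 23 genes above 0 and 6 called higher. *INSIG1* rose by 1.11 ± 0.06 (SE) in THP1 (adjusted p = 0.0204, limma) and had 0.32 ± 0.10 in MV4-11, and the difference of -0.79 ± 0.12 did not pass (adjusted p = 0.0973, limma). *DHCR7* had 0.53 ± 0.08 in THP1 and a difference between the lines of 0.06 ± 0.12 (SE). None of the 23 genes passed the test of the difference.

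Fatty acid genes held fewer such members. Of 15 tested, 13 lay above 0 and 5 were higher at an unadjusted p below 0.05, with a median of 0.07 and pairs at 0.04, 0.07 and 0.13. That became 10 above 0 without the third pair. *FADS1*, the delta-5 desaturase, had 22.8, 21.04 and 18.3 scaled TPM at 8 h and 29.6, 27.4 and 25.8 at 24 h without overlap, a difference of 0.40 ± 0.06 (SE). *SCD*, which makes monounsaturated fatty acids, had 52.2, 47.1 and 33.8 at 8 h and 64.1, 66.2 and 40.5 at 24 h. *FADS2*, the delta-6 desaturase, had 14.6, 13.7 and 9.28 at 8 h and 18.5, 17.9 and 11.9 at 24 h. In both of these the third pair ran lower at either time, so the groups overlapped while each pair was higher at 24 h.

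In the fit of all 3 pairs the mitochondrially encoded mRNAs lay above 0 and most nuclear complex I subunits below. All 13 mitochondrially encoded mRNAs had differences above 0, 9 at an unadjusted p below 0.05, and in 3 the times did not overlap. The median was 0.31, with pair medians of 0.34, 0.39 and 0.23. With the third pair left out, 12 lay above 0 and 1 was called. *MT-CO2*, a subunit of cytochrome c oxidase, had 1305, 1694 and 1719 scaled TPM at 8 h and 1957, 2364 and 2171 at 24 h without overlap. *MT-ND4L*, a complex I subunit, had 234.1, 333.3 and 240.3 at 8 h and 320.9, 460.9 and 339.2 at 24 h. It overlapped between the times but was higher in each pair. *MT-ND3*, also of complex I, had 174.9, 241.2 and 436.9 at 8 h and 328.7, 391.8 and 431.5 at 24 h, where the third pair did not separate. Differences were 0.47 ± 0.13, 0.47 ± 0.07 and 0.53 ± 0.19 (SE).

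The share of mitochondrial RNA in the TPM before scaling, which includes these mRNAs, rose in pairs 1 and 2 and not in pair 3. Mitochondrial genes held 1.16%, 1.70% and 2.09% of the TPM at 8 h and 1.93%, 2.77% and 2.08% at 24 h. The mitochondrial ribosomal RNA *MT-RNR1* had 59.3, 361.0 and 428.0 scaled TPM at 8 h and 402.9, 1557 and 330.1 at 24 h. *MT-RNR2* had 515.5, 2103 and 2395 at 8 h and 2423, 7052 and 1662 at 24 h. Replicates at one time thus differed more than the times did. The part of this variation in the differences of the mRNAs was not tested. In bulk samples more cells rich in mitochondrial RNA and more of it per cell cannot be told apart. In THP1 the list had a median of 0.25 with pairs at -0.09, 1.22 and -0.22.

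Of the 37 nuclear complex I subunits, 35 lay below 0, 9 at an unadjusted p below 0.05, with a median of -0.18. In only 2 of the 37, *NDUFB6* among them, did all 24 h libraries lie below all 8 h libraries. Pairs 1 and 2 gave -0.31 and -0.22 and pair 3 gave 0.06. Without the third pair 36 lay below 0, 32 at an unadjusted p below 0.05, and the median was -0.30. *NDUFB6*, an accessory subunit of the membrane arm, had 28.9, 28.7 and 27.6 scaled TPM at 8 h and 23.6, 20.3 and 23.1 at 24 h without overlap, and its difference of -0.34 ± 0.07 (SE) was the lowest of the list. *NDUFA12* had 72.2, 60.8 and 79.9 at 8 h and 51.5, 52.7 and 71.1 at 24 h, lower in each pair although the third pair ran high at both times. In THP1 36 of 37 lay below 0 with a median of -0.21.

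**Figure D4:**
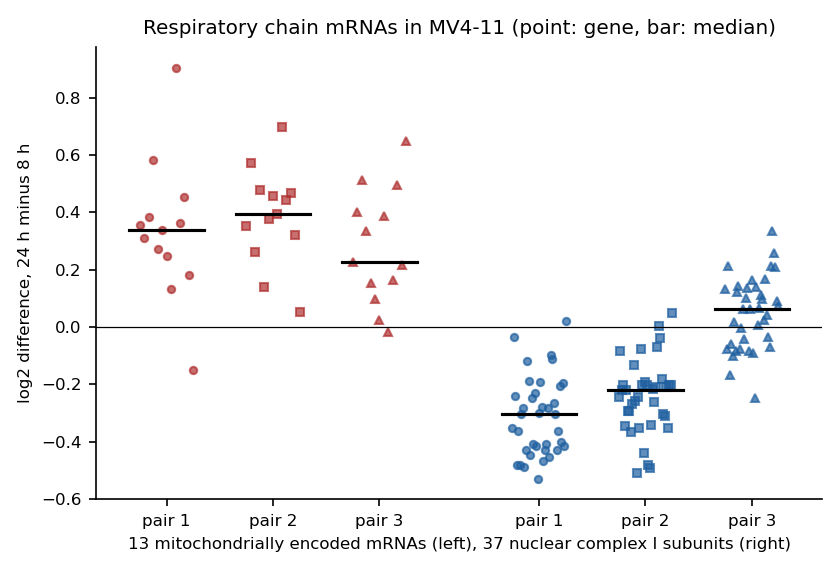
Log2 difference, 24 h minus 8 h of IACS in MV4-11 (y axis), of 13 mitochondrially encoded mRNAs and 37 nuclear complex I subunits in each of the 3 replicate pairs (x axis), 1 point per gene with the median as a line. The mitochondrial mRNAs have medians of 0.34, 0.39 and 0.23, and the nuclear subunits pass from -0.31 and -0.22 to 0.06 in the third pair.

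Other mitochondrial groups had the same pattern over pairs as nuclear complex I. Of 22 genes of the TCA cycle, 19 lay below 0 with a median of -0.13, lowest in *SDHD*, a subunit of complex II, at -0.26 ± 0.08 (SE). Of 40 mitochondrial ribosomal proteins, 32 lay below 0 with a median of -0.11, lowest in *MRPL13* at -0.31 ± 0.07. Of 16 mitochondrial chaperones and proteases, 14 lay below 0 with a median of -0.07. The pairs gave -0.22, -0.17 and 0.04, then -0.24, -0.18 and 0.03, then -0.20, -0.14 and 0.10. With the third pair left out, the medians of the TCA cycle, the mitochondrial ribosomal proteins and the chaperones and proteases were -0.20, -0.22 and -0.17, with 16, 27 and 10 genes lower at an unadjusted p below 0.05.

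Iron genes held the 1 gene at which the cell lines differed. *TFRC* (chr3:196012511-196082153, GRCh38), the transferrin receptor through which cells take up iron, had 84.8, 80.4 and 84.2 scaled TPM at 8 h and 93.5, 90.2 and 90.4 at 24 h in MV4-11. In THP1 it had 71.7, 66.4 and 82.2 at 8 h and 44.2, 37.9 and 49.8 at 24 h. The difference was 0.14 ± 0.06 (SE) in MV4-11 and -0.73 ± 0.05 in THP1, and the test of the difference between the cell lines gave 0.87 ± 0.07 (adjusted p = 0.0388, limma interaction, 1 of 12547 genes called, 0.00797%). In both MV4-11 groups *TFRC* lay below the DMSO libraries at 129.9 ± 6.06 (SD, n = 3). The call rests on the fit: the adjusted p was 0.193 without the block and 0.132 on TPM as deposited, and 0.034 to 0.212 when 1 replicate pair of either line was left out, with a log2 difference of 0.84 to 0.89 throughout these leave-outs.

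*FTH1*, the heavy chain of ferritin that stores iron, had 259.5, 272.4 and 220.2 scaled TPM at 8 h and 255.0, 296.5 and 201.4 at 24 h in MV4-11, a difference of -0.01 ± 0.08 (SE). In THP1 it fell by 0.97 (SE 0.08, adjusted p = 0.0204, limma), from 342.9, 278.7 and 352.1 to 153.9, 161.5 and 178.4. The difference between the lines of 0.96 ± 0.12 did not pass (adjusted p = 0.0872, limma). *ALAS1*, the first enzyme of heme synthesis, had 104.3, 96.2 and 122.0 at 8 h and 79.3, 79.5 and 104.0 at 24 h in MV4-11, lower in each pair, with DMSO at 56.9 ± 7.09. Of the 18 iron and heme genes 7 lay above 0 and 11 below.

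**Figure D5:**
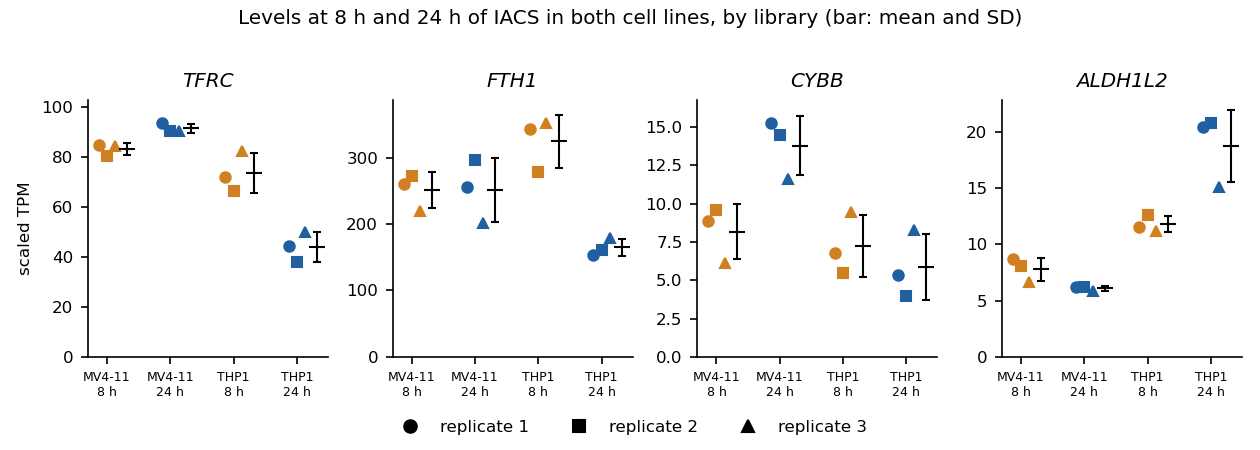
Scaled TPM (y axis, linear) of *TFRC*, *FTH1*, *CYBB* and *ALDH1L2* in the libraries of MV4-11 and THP1 at 8 h and 24 h of IACS (1 shape per replicate, bars for the mean ± SD, n = 3). *TFRC* at 24 h lies at 90.2 to 93.5 in MV4-11 and at 37.9 to 49.8 in THP1.

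Outside the lists, 3 genes are named by their size while missing the call, all of them higher at 24 h, and no gene met the same conditions among the lower ones. *CYBB*, the catalytic subunit of the phagocyte NADPH oxidase, had 8.85, 9.57 and 6.12 scaled TPM at 8 h and 15.3, 14.5 and 11.6 at 24 h. Every 24 h library lay above every 8 h library and above DMSO at 9.33 ± 0.09 (SD, n = 3), with a difference of 0.70 ± 0.08 (SE, adjusted p = 0.64, limma). In THP1 it had -0.28 ± 0.07, and the difference between the lines was 0.98 ± 0.10 (adjusted p = 0.0668, limma). *TNNT1*, a troponin of slow muscle, had 14, 11 and 7.71 at 8 h and 18.9, 16.2 and 15.2 at 24 h. *ARHGAP11B* had 5.94, 12.1 and 13.9 at 8 h and 15.6, 18.9 and 16.6 at 24 h, with 1 low library at 8 h, and its reads may be shared with its near copy *ARHGAP11A*.

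Surface and antigen presentation genes of myeloid cells lay mostly higher. Of 16 monocyte differentiation genes, 12 lay above 0 and 4 below, with a median of 0.12 (0.06 without the third pair) and pairs at -0.01, 0.16 and 0.24. *ITGAX*, the integrin CD11c, had 3.94, 4.04 and 3.65 scaled TPM at 8 h and 5.85, 6.93 and 4.93 at 24 h, a difference of 0.49 ± 0.09 (SE) without overlap and with DMSO at 2.88 ± 0.29. *S100A9*, an alarmin of myeloid cells, lay on the other side with 83.2, 68.5 and 109.1 at 8 h and 60.2, 55.8 and 87.5 at 24 h, -0.35 ± 0.06, lower in each pair. All 7 genes of the MHC class II list, *CTSS* among them, lay above 0 with a median of 0.20 and pairs at 0.04, 0.27 and 0.23. The highest was *HLA-DMA*, which helps load peptides, at 0.29 ± 0.07. Granule protein genes lay mostly lower, with 2 of 8 above 0 and 6 below. Their median was -0.09 (-0.17 without the third pair), with pairs at -0.20, -0.15 and 0.18. *IGSF6*, an immunoglobulin-like receptor of myeloid cells, had 3.15, 2.73 and 4.18 at 8 h and 5.06, 4.56 and 6.29 at 24 h in MV4-11 (0.54 ± 0.08), against -0.54 ± 0.08 in THP1. The difference of 1.08 ± 0.11 did not pass (adjusted p = 0.0668, limma).

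Mitotic genes lay above 0 without exception, by small amounts. All 35 had differences between 0.04 and 0.27, 7 at an unadjusted p below 0.05 and 8 without overlap, with a median of 0.11 and pairs at 0.12, 0.15 and 0.07. Without the third pair all 35 lay above 0, 20 at an unadjusted p below 0.05. *CENPA*, the histone of centromeres, had 24.6, 22.9 and 23.8 scaled TPM at 8 h and 28.0, 28.5 and 28.4 at 24 h, with DMSO above both at 34.9 ± 0.43 (SD, n = 3). *TOP2A*, a topoisomerase of dividing cells, had 162.5, 154.2 and 168.9 at 8 h and 189.0, 182.2 and 182.1 at 24 h. *CDC25B*, a phosphatase that activates CDK1, was highest of the list at 0.27 ± 0.09 (SE), and *FOXM1*, a transcription factor of mitotic genes, had 0.26 ± 0.07. In THP1 32 of 35 lay above 0 with a median of 0.14.

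Genes of S phase showed no common side. Of 41 DNA replication genes, 20 lay above 0 and 21 below with a median of -0.00 (0.02 on TPM as deposited), and the pairs gave -0.17, -0.13 and 0.29. *CDT1*, the licensing factor, was the highest of the list with 84.4, 82.7 and 72.1 scaled TPM at 8 h and 105.3, 107.9 and 101.3 at 24 h, a difference of 0.39 ± 0.06 (SE) without overlap. Of 23 replication-dependent histones, 15 lay above 0, with pairs at -0.19, -0.15 and 0.44. Without the third pair 34 of 41 replication genes and 23 of 23 histones lay below 0.

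Apoptosis genes differed little. Of 13 genes of the BCL-2 family 9 lay above 0 and 4 below, with a median of 0.02 and 1 gene at an unadjusted p below 0.05. *MCL1*, an antiapoptotic member with a short-lived product, had 81.1, 82.0 and 79.2 scaled TPM at 8 h and 81.8, 81.8 and 82.5 at 24 h, a difference of 0.02 ± 0.06 (SE). *BCL2*, another antiapoptotic member, had 73.0, 75.6 and 61.5 at 8 h and 79.4, 77.2 and 57.4 at 24 h, and the third pair lay low at both times. Among effectors and BH3-only genes *BAX* had 0.09 ± 0.06, *BAK1* 0.01 ± 0.11, *PMAIP1* (NOXA) -0.01 ± 0.08 and *BBC3* (PUMA) -0.07 ± 0.07. *BMF*, a BH3-only gene, was highest at 0.16 ± 0.06 and stood at 17.4, 17.1 and 14.4 against 19.4, 20.1 and 15.5. In THP1 *BMF* rose by 0.68 ± 0.12 (adjusted p = 0.0302, limma) from a mean of 1.15 scaled TPM, and the difference between the lines of -0.52 ± 0.11 did not pass (adjusted p = 0.136, limma).

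Of 22 p53 targets, 17 lay below 0 and 5 above, with a median of -0.08 and pairs at -0.11, -0.08 and -0.04. *SESN1*, an antioxidant and mTORC1 regulator, was lowest at -0.28 ± 0.08 (SE), with 14.6, 12.4 and 12.4 scaled TPM at 8 h and 10.4, 10.1 and 11.3 at 24 h. Of 15 glucocorticoid and FOXO targets, 12 lay above 0. *YPEL3*, a growth-restraining gene, had 3.09, 2.94 and 3.72 at 8 h and 4.62, 5.32 and 5.71 at 24 h, 0.55 ± 0.09 without overlap, and *TSC22D3* (GILZ), a glucocorticoid-induced leucine zipper, had 0.35 ± 0.10.

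Glycolytic genes lay on both sides of 0. Of 24, 16 lay below 0 and 8 above, with a median of -0.10 and pairs at -0.25, -0.14 and 0.11, and without the third pair the median was -0.18 with 11 genes lower at an unadjusted p below 0.05. *HK3*, a hexokinase of myeloid cells, had 6.72, 5.97 and 5.79 scaled TPM at 8 h and 8.28, 7.66 and 10.1 at 24 h, 0.43 ± 0.11 (SE) without overlap. *PFKFB4*, which sets the level of fructose 2,6-bisphosphate, had 3.92, 4.17 and 3.79 at 8 h and 5.59, 5.16 and 4.64 at 24 h, also without overlap. *LDHA*, lactate dehydrogenase A, had 191.5, 179.3 and 208.4 at 8 h and 148.0, 151.1 and 190.4 at 24 h, lower in each pair, at -0.25 ± 0.08. In THP1 *PFKFB4* rose by 0.71 ± 0.07 (adjusted p = 0.0214, limma).

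The alpha-arrestins report glucose uptake through the factor MondoA. Of 8 genes of this axis, 7 lay above 0 and 0 had an unadjusted p below 0.05, with a median of 0.11 and pairs at 0.09, 0.03 and 0.16. Without the third pair 5 of 7 lay above 0 with a median of 0.03. *TXNIP*, which blocks glucose transporters, had 73.2, 66.9 and 71.7 scaled TPM at 8 h and 71.7, 68.3 and 78.9 at 24 h, below the DMSO mean of 116.4 ± 19.9 (SD, n = 3) at both times. *ARRDC4* was at 3.70, 3.43 and 3.91 at 8 h and 3.38, 3.12 and 4.10 at 24 h, with DMSO at 7.06 ± 0.64. *ARRDC3* had the opposite order to DMSO, with 11.2, 11.9 and 10.6 at 8 h and 12.3, 12.8 and 12.4 at 24 h against 6.58 ± 0.74. Between the times *TXNIP*, *ARRDC4* and *ARRDC3* had differences of 0.05 ± 0.06, -0.05 ± 0.09 and 0.14 ± 0.06 (SE).

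Protein-making and protein-folding groups depended on the pair. Of 71 ribosomal proteins, 39 lay above 0 and 32 below with a median of 0.01, and the highest, *RPS16*, ranged from 176.5 to 623.1 scaled TPM within the 8 h group. Of 28 ribosome biogenesis genes, 25 lay below 0 with a median of -0.08, lowest in *UTP20*, a factor for the small subunit, at -0.33 ± 0.08 (SE). Of 21 chaperones of the endoplasmic reticulum, 14 lay below 0 with a median of -0.09, lowest in *PDIA3*, a disulfide isomerase, at -0.28 ± 0.09. Among cytosolic chaperones *HSP90AA1* had -0.19 ± 0.07 and *HSPA1A*, the inducible HSP70, had 0.27 ± 0.09. Each of these 4 lists had pairs 1 and 2 below 0 and pair 3 above. The medians with the third pair left out were -0.09 for ribosomal proteins, -0.18 for ribosome biogenesis, -0.15 for chaperones of the endoplasmic reticulum and -0.13 for cytosolic chaperones.

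In the list of NRF2 targets and glutathione 16 of 18 genes lay below 0, with a median of -0.09 and pairs at -0.25, -0.15 and 0.07. The median was -0.21 without the third pair, with 11 genes lower at an unadjusted p below 0.05. *NQO1*, a quinone reductase, had 77.4, 62.8 and 26.1 scaled TPM at 8 h and 46.4, 43.0 and 20.2 at 24 h, lower in each pair at -0.54 ± 0.09 (SE). The third pair ran at a lower level at both times, and so did the third DMSO library with 28.7 against 70.6 and 74.0. Of 22 immediate early genes, 15 lay above 0 and 5 were higher at an unadjusted p below 0.05, with a median of 0.14 and pairs at 0.13, 0.11 and 0.10, highest in *KLF2* at 0.32 ± 0.15. Of 11 interferon-stimulated genes, 4 lay above 0 and 7 below, with pairs at -0.03, -0.06 and -0.06. *STAT2*, part of the factor that drives them, had 54.7, 56.3 and 55.8 at 8 h and 64.7, 64.4 and 61.6 at 24 h (0.19 ± 0.06), and *ISG15* had -0.32 ± 0.13. Of 11 myeloid transcription factors, 9 lay above 0, with pairs at -0.04, 0.03 and 0.15 and with *IRF8* lowest at -0.11 ± 0.07, and of 13 genes of the KMT2A-fusion program, 11 lay above 0 with a median of 0.03 and pairs at 0.08, 0.07 and -0.03. The median of that program was 0.07 without the third pair.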

How the data were processed

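RNA from MV4-11 and THP1 cells was sequenced by the authors as paired-end reads from TruSeq libraries, trimmed, aligned to GRCh38 and counted in CLC Genomics Workbench. The values deposited are TPM, which the authors computed per gene symbol, so that each library sums to a fixed total and a larger share of a few RNAs lowers all others. The annotation release and the use of strand are not given in the sources used here, so overlapping and antisense genes may share reads. TPM are not counts. Steps of whole reads in the low values, with exon lengths from GENCODE, put the 6 MV4-11 IACS libraries at an estimated 22.9 to 26.2 in units of 1e6 reads or pairs, with 78.4% to 79.8% of the low values whole within a tolerance of 0.02.

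The 6 MV4-11 IACS libraries were grouped by their titles. Genes averaging 1 TPM or more were kept, libraries were scaled by the median of ratios, and log2(scaled TPM + 1) was tested in limma 3.58.1 (R 4.3.3, lmFit and eBayes with a variance trend) with the replicate number as a block. A call needed a Benjamini-Hochberg adjusted p below 0.05 and more than 1.5-fold. The same fit was run on THP1, and an interaction over 12 libraries tested the difference between the lines for genes at 1 TPM in both. DMSO libraries gave levels only. Kruskal-Wallis tests, which the study used, were not run across genes.

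The 43 gene lists were described by counts and medians, with no set test. The members and lists were chosen with earlier results of these data known. List symbols were matched by older symbols in 43 cases, and 6 were unmatched. Genes are named by size (no overlap between the times, a mean of at least 5 scaled TPM, over 1.5-fold, by limma p where the call is missed, up to 12 per direction, small and mitochondrial RNAs left out), from a fixed set of stress, glucose and apoptosis genes, as the ends of each list, or as the largest called difference between the lines. The other genes named, such as *DHCR7*, *CENPA* and *IGSF6*, were chosen after their values were seen. Some list members are counted but not reported here by name. Gene coordinates are from GENCODE release 44 and promoter windows from RefSeq on GRCh38.p14. Alternatives were no block, other scalings, pseudocount, filters, no trend, DMSO libraries in the fit, and leaving out each replicate. Leaving out pairs in THP1 and in the interaction, and the lists without the third pair, were added after seeing the data.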

Additional observations from a re-analysis of the deposited data

Results flagged for a closer look

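1 gene differed between the cell lines in the test of the difference itself. *TFRC*, 24 h minus 8 h of IACS, differed by 0.87 on the log2 scale between MV4-11 and THP1 (adjusted p = 0.0388, limma interaction), and all 3 pairs were higher at 24 h in MV4-11.

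For 5 gene lists the medians of all 3 pairs lay on one side of 0 in MV4-11 and on the other in THP1, and the difference was not tested. These lists share members, so they are not separate contrasts. *SESN2* and *DDIT4* are in the ISR and mTORC1 lists, *SESN1* in the p53 and mTORC1 lists, and *CTSS* in the autophagy and MHC class II lists. The ISR list had a median over genes of -0.06 in MV4-11, with pairs at 0.14, 0.07 and 0.07 in THP1. The p53 targets had -0.08, with THP1 pairs at 0.01, 0.03 and 0.16. The autophagy and lysosome genes had 0.03, with THP1 pairs at -0.10, -0.07 and -0.05. The genes that restrain mTORC1 had a median of 0.04 over the fitted differences but -0.13, -0.05 and -0.03 in the 3 pairs, so that median and pair medians differ in sign, and THP1 had 0.07, 0.02 and 0.10. The MHC class II genes had 0.20, with THP1 pairs at -0.01, -0.02 and -0.03. Groups of 3 libraries were not tested for a library far from the others.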

How the results depend on the processing

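The count of genes called was 0 under every scaling, pseudocount, filter and trend tried with all 6 libraries. Leaving out libraries gave 0 to 53 calls, and 0 to 277 at any fold, both highest without the third pair. Without the adjustment 73 genes passed. Same-numbered libraries of MV4-11 had correlations of their deviations of 0.082, 0.396 and 0.419, while THP1 had 0.19, 0.304 and 0.345, all above 0.1. Differently numbered libraries had -0.495 to 0.377 in MV4-11 and -0.402 to 0.134 in THP1. The 0.377 was between replicate 2 at 8 h and replicate 1 at 24 h, close to the 0.396 of the same-numbered pair. Because the first same-numbered MV4-11 value lies below 0.1, the numbers were not counted as pairing in MV4-11. The SE and the list counts at an unadjusted p rest on the block all the same, and list counts without it are not given here. Statements that a gene was higher or lower in each MV4-11 pair therefore remain a description. The fit with no replicate block called 0 genes in MV4-11 and 0 in THP1, where 129 were called with the block and 27 to 233 with a pair left out. In the difference between the lines 1 gene was called, 0 without the block, 0 on TPM as deposited, and 0 to 13 with a pair left out (13 without the third MV4-11 pair and 7 without the second THP1 pair). The cause was not tested.

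On TPM as deposited the median of all genes was 0.02, and 3 list medians moved by more than the spread between pairs, to 0.16 for immediate early genes, 0.055 for autophagy and lysosome and 0.10 for the MV4-11 markers. Genes near 0 changed sign with a library left out. Their ranges were -0.215 to 0.056 for *DDIT3*, -0.22 to 0.13 for *PHGDH*, -0.013 to 0.087 for *TXNIP*, -0.141 to 0.013 for *ARRDC4*, -0.072 to 0.162 for *BCL2*, -0.15 to 0.10 for *BAK1*, -0.094 to 0.051 for *PMAIP1*, -0.08 to 0.078 for *FDPS*, -0.062 to 0.941 for *RPS16*, -0.14 to 0.14 for *FTH1*, -0.046 to 0.043 for *CEBPG* and -0.21 to 0.09 for *ATF3*. On TPM as deposited *PMAIP1* had 0.01 and *FTH1* 0.013, and with the DMSO libraries in the fit *PHGDH* and *CEBPG* had -0.00. Depth is known only as an estimate, so no counting error is attached to any level.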
